A study of Homo sapiens with 8 samples.

Results

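The Notch pathway was followed in A549 cells through 10 genes chosen by symbol, out of 58302 genes quantified: the receptors NOTCH1, NOTCH2 and NOTCH3, the ligands JAG1, JAG2 and DLL1, and the targets HES1, HES4, HEY1 and NRARP. A549 is an established human lung adenocarcinoma line, and RNA sequencing was done on 8 libraries in 4 groups of 2. The groups were A549 cells with an shRNA (a short hairpin RNA that lowers its target's transcript) against the receptor tyrosine kinase AXL, their controls with a control shRNA, A549 cells exposed to 40 nM of the AXL inhibitor TP-0903, and their own control cells. All were grown in F12K medium with serum. The series was set up to look for resistance pathways after TP-0903. The sources used here do not give the number of hairpins and clones, the time of exposure or what the drug's control cells received, and 1 cell line was studied. The library names hold a P number, 15 or 3 with a hairpin and 17 or 4 with the drug or its control, whose meaning is not stated. The labels call the libraries biological replicates without saying what separates them, so p-values measure only the spread between these libraries.

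Notch receptors are single-pass proteins that are activated by ligands of the Jagged and Delta-like families on a neighbouring cell. Ligand binding exposes the receptor to cleavage by ADAM proteases and then by gamma-secretase, and the freed intracellular domain enters the nucleus, where it joins the DNA-binding protein RBPJ and a Mastermind coactivator. HES and HEY genes, which encode transcriptional repressors, and NRARP, whose product limits the intracellular domain, are common targets, and in lung epithelium the pathway is best known for directing the choice between secretory and multiciliated cells.

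Since RBPJ is the step that links the receptors to their targets, promoter sequence is shown for HES1, HES4 and NRARP, the 3 targets among the 8 members matched in RefSeq's promoter table (GRCh38.p14). DLL1 and HEY1 were not matched. Capitals mark the RBPJ core TGGGAA, or GTGGGAA where the preceding base is G as well. Both strands were searched, every GTGGGAA also counts as a TGGGAA, and positions are counted from the RefSeq start, with negative numbers before it. The HES1 stretch is chr3:194136028-194136127 on the plus strand, the HES4 stretch chr1:1000158-1000187 on the minus strand and the NRARP stretch chr9:137302292-137302391 on the minus strand.
HES1: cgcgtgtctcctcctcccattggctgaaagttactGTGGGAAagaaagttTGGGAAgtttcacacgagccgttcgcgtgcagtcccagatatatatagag
HES4: ggctggggcgagtGTGGGAAagaatgcgga
NRARP: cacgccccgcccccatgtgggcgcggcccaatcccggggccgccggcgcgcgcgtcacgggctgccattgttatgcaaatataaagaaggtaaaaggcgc

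HES1 held GTGGGAA from -85 to -79 and a further TGGGAA from -70 to -65, and HES4 held GTGGGAA from -77 to -71. GENCODE release 29 starts HES4 at chr1:1000172, within the printed stretch, so part of its GTGGGAA lies inside that gene model. The 300 bases around the NRARP start held neither, nor did those of NOTCH1, NOTCH2, NOTCH3, JAG1 and JAG2, which says only that these letters are not in that window. Of 35116 promoters of the same length, 24% held TGGGAA and 6.25% held GTGGGAA. HES1 and HES4 also shared the 12-base run TGTGGGAAAGAA, starting at -86 in HES1 and -78 in HES4, which 8 of the 35116 promoters held; the run was noticed after the sequences had been read. The N-box CACNAG, to which HES proteins bind, was found in 38% of all promoters. It was at 4 places in HES1 and at 1 each in NRARP, NOTCH2 and NOTCH3. In NOTCH1 it was read 2 times at overlapping positions, from -1 to 5 on the gene's strand and from 2 to 7 on the opposite strand.

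Library totals ran from 30067011 to 44217023 expected counts. AXL itself was at 55.4 and 63.0 CPM (counts per 1000000 of the scaled library total) with the AXL shRNA, against 85.1 and 139.5 CPM with the control shRNA. Both AXL shRNA libraries lay below both controls, but the change (log2 -0.92, SE 0.42) had an adjusted p of 0.120 in edgeR's quasi-likelihood test and of 8.58e-04 with the P number as a block. With TP-0903 AXL was at 279.6 and 153 CPM, against 216 and 105 CPM in control cells (log2 0.43, adjusted p = 0.544, and 0.0354 with the block). The 6 epithelial markers (KRT8, KRT18, KRT7, KRT19, CDH1, EPCAM) summed to 20490 to 24340 CPM with the AXL shRNA against 6187 to 6953 CPM in its controls, with 5 of 6 higher, and to 11400 to 12500 CPM with TP-0903 against 8596 to 10070 CPM in its controls, with 2 of 6 higher. Sums were 3.42 to 10.1 CPM with the AXL shRNA against 0.419 to 2.83 CPM in its controls for 6 endothelial markers, 36.0 to 49.6 against 13.2 to 16.4 CPM for 6 fibroblast and mural markers, and 17.7 to 20.7 against 18.7 to 28.7 CPM for 7 blood markers. With TP-0903 and in its controls those sums were 0.703 to 1.88 and 1.17 to 2.14, 11.02 to 16.7 and 17.03 to 19.2, and 12.1 to 16.9 and 18.6 to 19.2 CPM. The sums do not show whole lists moving together. CDH5 held 9.57 of the 10.1 CPM of the endothelial sum. It was the only 1 of those 6 genes tested, and with the AXL shRNA it did not pass (adjusted p = 0.150). Of the 4 blood markers tested, 2 were higher and 1 was lower with the AXL shRNA. HBA1, 1 of the 2, entered the test only through the AXL shRNA libraries (21 and 31.25 expected counts, against 0 in both controls). Among all genes tested 18.5% were higher and 19.0% lower with the AXL shRNA, and 4.90% were higher with TP-0903. The part of these marker shifts in any result on the Notch genes was not tested, and in bulk RNA fewer cells of a type and less RNA per cell cannot be told apart.

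On the length-corrected TPM scale (transcripts per 1000000), JAG1, a Jagged ligand, was the most abundant member, at 39.9 to 109.7 TPM with a median of 63.9 over the 8 libraries. Its lowest library lay above every library of every other member. JAG2 (median 13.2), the receptor NOTCH2 (13.0), HES1 (10.8), HES4 (10.2) and the receptor NOTCH3 (8.42) followed with ranges that overlapped from one to the next. NOTCH1 had a median of 4.70 TPM and a range of 3.63 to 12.2 TPM. HEY1 (median 1.06), NRARP (0.625) and DLL1 (0.135) were low, and in counts HEY1 had 14 to 83 per library, NRARP 8 to 55 and DLL1 2 to 76. All 10 members passed the filter on low counts, DLL1 only through the AXL shRNA libraries and 1 of their controls. JAG1 made up 67.7% to 86.7% of the summed TPM of JAG1, JAG2, DLL1, DLL3 and DLL4.

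**Figure D1:**
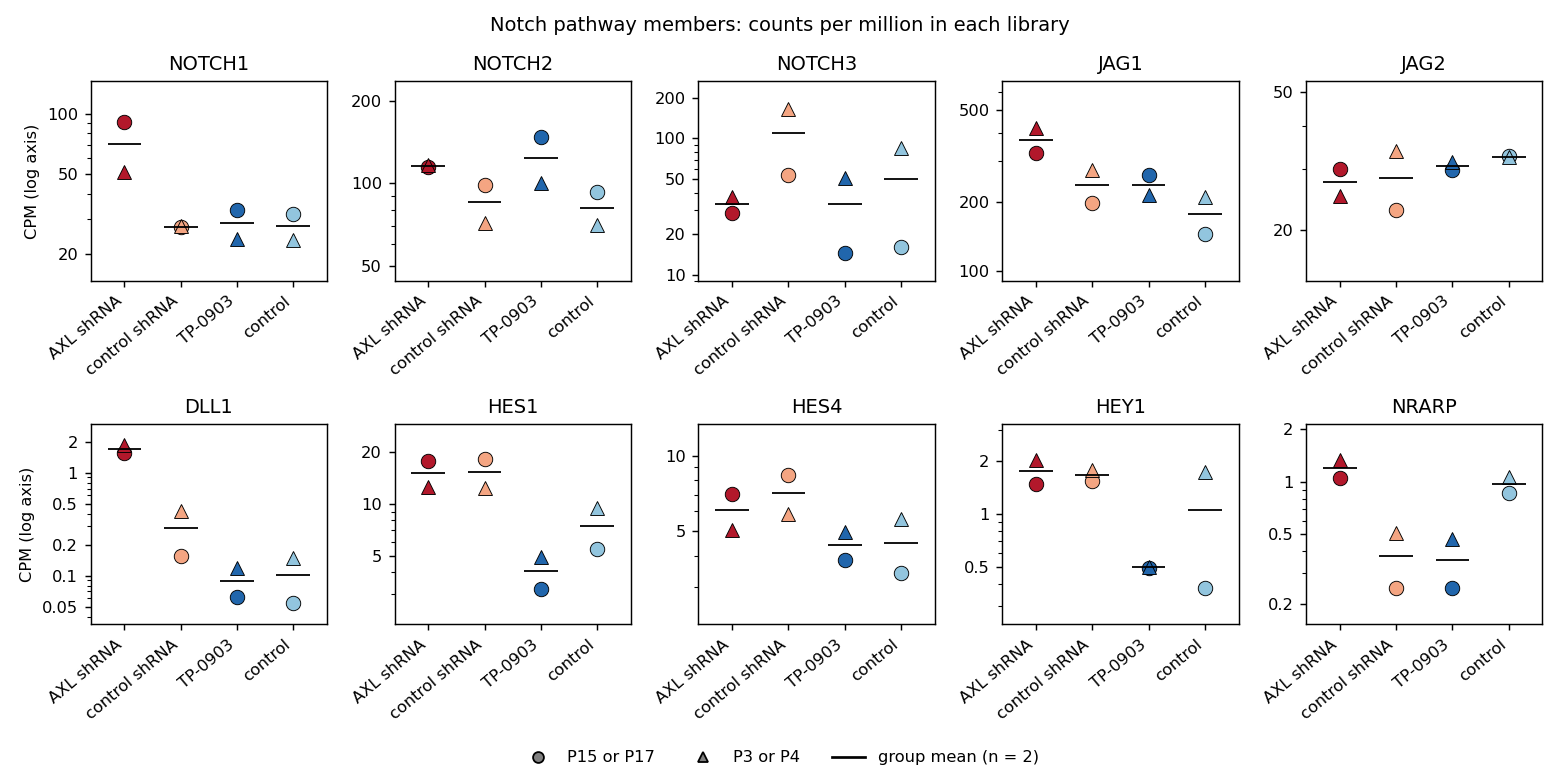
CPM of each member (log axis) in the 8 libraries, by group, with circles for P15 or P17, triangles for P3 or P4 and a bar for the group mean (n = 2). Both AXL shRNA libraries lie above both control shRNA libraries for NOTCH1, NOTCH2, JAG1, DLL1 and NRARP and below them for NOTCH3; both TP-0903 libraries lie above both controls for NOTCH2 and JAG1 and below them for JAG2, HES1 and NRARP.

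With the AXL shRNA, the receptor NOTCH1 and the feedback regulator NRARP rose against the control shRNA, by 2.58-fold and 3.15-fold. The ligand DLL1 was 5.84-fold higher and was called as well, but it entered the test only through the AXL shRNA libraries, where it is high. These were 3 of the 10 members, and none fell past the threshold. Among all 17676 genes tested 37.5% passed in either direction, so the members' count is near the share among genes at large. In CPM 6 members did not overlap between the groups, NOTCH1, NOTCH2, JAG1, DLL1 and NRARP above and NOTCH3 below the controls, as did not 70% of all genes tested. The repressor genes HES1, HES4 and HEY1 did not pass, with log2 changes of -0.02, -0.23 and 0.08, and the sign of HES1 and HEY1 turned under other scalings. With the P number as a block 6 members passed, 5 higher and 1 lower, beside 51.7% of all genes.

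NOTCH1 (ENSG00000148400, chr9:136494433-136545786, minus strand) had 90.8 and 51.0 CPM with the AXL shRNA at P15 and P3, against 27.2 and 27.6 CPM with the control shRNA. Both hairpin libraries stood above both controls, and P15 was the higher of the pair. Its log2 change was 1.37 (SE 0.29, adjusted p = 0.0104), and it was 3.33-fold at P15 and 1.85-fold at P3. Without either control shRNA library the adjusted p was 0.0566 (P15 left out) or 0.0531 (P3 left out).

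NOTCH2 (chr1:119911553-120069626) had 115 and 117 CPM with the AXL shRNA, against 98.6 and 71.7 CPM with the control shRNA. The groups did not overlap in CPM but did in TPM, where the AXL shRNA libraries had 12.8 and 13.2 and the controls 13.9 and 9.04. Its log2 change of 0.44 (SE 0.23) had an adjusted p of 0.173, and of 0.0159 with the block. The expected counts of NOTCH2 were not whole (by more than 0.001) in any of the 8 libraries, so RSEM shared reads between it and other loci and its level is uncertain. The partial copy NOTCH2NL had 9.15 ± 0.47 CPM with the AXL shRNA and 8.52 ± 2.27 CPM with the control shRNA (SD, n = 2 each), a log2 change of 0.10 that did not pass.

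NOTCH3 (chr19:15159038-15200981), the receptor best known from mural cells of vessels, had 28.3 and 37.4 CPM with the AXL shRNA at P15 and P3, against 53.7 and 165 CPM with the control shRNA. All of the AXL shRNA values were below the controls, and in both groups P3 was the higher library. The controls differed from each other by 3.08-fold, and the log2 change of -1.73 (SE 0.89) had an adjusted p of 0.165. Within a P number the ratio was 0.528 at P15 and 0.226 at P3, and with the block the log2 change was -1.55 (adjusted p = 0.00124). Of the 4 tested fibroblast and mural markers 3 were higher with the AXL shRNA and none was lower, beside 18.5% of all genes higher. The 3 were COL1A1, LUM and RGS5. The symbol RGS5 is not unique among the genes, and only its first entry was counted here. The remaining tested marker, PDGFRB, did not pass (log2 -0.78, adjusted p = 0.282). COL1A2 and DCN, also on the list, had 0 to 3 expected counts per library and were not tested. Any link between these markers and NOTCH3 was not tested.

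The mix of receptor transcripts is given as a description, with no test of the shares. NOTCH1 made up 40.7% and 26.5% of the summed TPM of NOTCH1 to NOTCH4 with the AXL shRNA, against 15.4% and 9.38% with the control shRNA. NOTCH3 made up 16.2% and 24.3% with the AXL shRNA, against 35.6% and 69.6% with the control shRNA. The NOTCH2 shares overlapped, at 42.8% and 48.8% with the AXL shRNA against 48.0% and 20.04% with the control shRNA. NOTCH4 was under 1% in every library, with 0.935% the highest share.

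**Figure D2:**
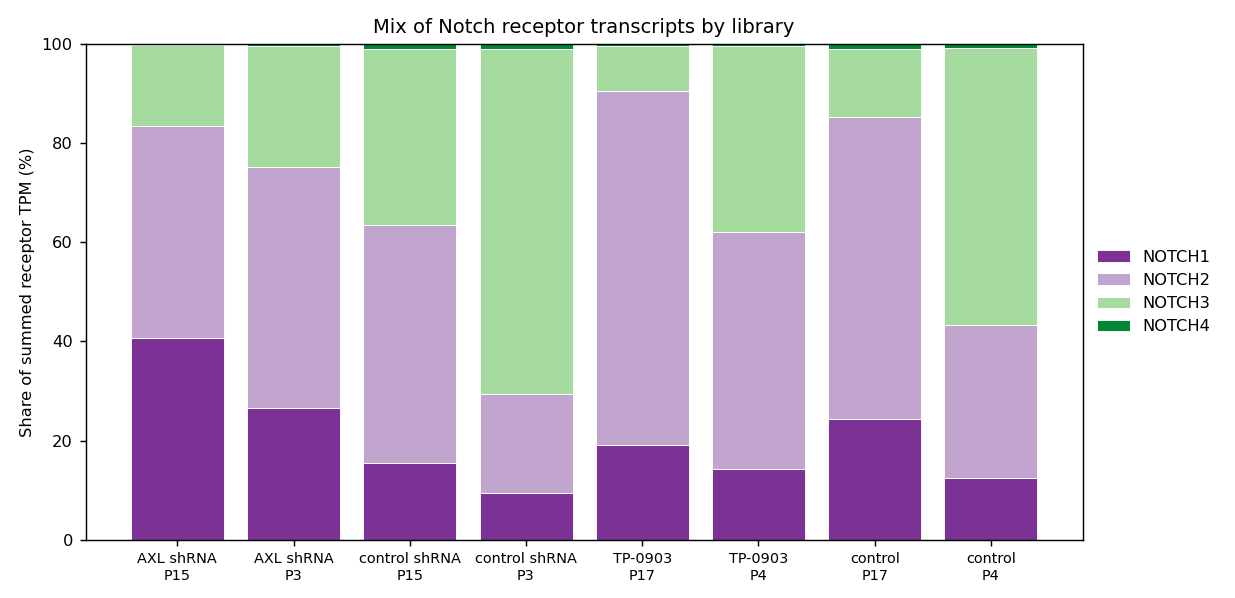
Share of each receptor in the summed TPM of NOTCH1, NOTCH2, NOTCH3 and NOTCH4 (percent), with 1 bar per library. The NOTCH1 share is larger in both AXL shRNA libraries (40.7% and 26.5%) than in their controls (15.4% and 9.38%), and the NOTCH3 share is larger in the P3 or P4 library than in the P15 or P17 library of each group.

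Among the ligands, JAG1 (chr20:10637684-10673999) had 328 and 419.8 CPM with the AXL shRNA, against 198 and 275 CPM with the control shRNA. Both AXL shRNA libraries were the higher, by 1.66-fold at P15 and 1.53-fold at P3. The log2 change of 0.66 (SE 0.24) had an adjusted p of 0.0679, and of 0.0115 with the block. JAG2 (chr14:105140981-105168824) had 29.98 and 25.1 CPM with the AXL shRNA, inside the 22.8 and 33.7 CPM of its controls, and its log2 change was -0.04 (95% interval -0.49 to 0.41, adjusted p = 0.892). No strand is stated for the libraries, and JAG1 shares 0.85% of its exon bases with an antisense gene and JAG2 7.33% with a gene on its own strand. The expected count of JAG2 was not whole in 3 libraries.

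DLL1 (chr6:170282206-170306565), a Delta-like ligand, had 51 and 76 expected counts with the AXL shRNA (1.54 and 1.84 CPM), against 5 and 14 counts with the control shRNA (0.154 and 0.419 CPM). Both AXL shRNA libraries were far above both controls, though the level stayed low. DLL1 passed the filter through the libraries in which it is high, so its test is not independent of the filter. The log2 change was 2.55 (SE 0.58, adjusted p = 0.0127), 10.0-fold at P15 and 4.40-fold at P3. Fitted with no count filter it was 2.52, at an adjusted p of 1.09e-04. That fit used the same libraries and called more members than the main fit, so its smaller p is no further support. Summed over each group, 127 against 19 counts gave a ratio of 5.93 with an exact binomial 95% interval of 3.64 to 10.2, which covers counting error only. The call was lost without the AXL shRNA library of P3 (adjusted p = 0.0548) or the control shRNA library of P15 (0.0648). In TPM the groups were 0.63 and 0.76 with the AXL shRNA against 0.26 and 0.20 with the control shRNA, where the first control's value rests on an effective length of 887 bases, the shortest of the 8 libraries.

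Of the targets, NRARP (chr9:137300482-137302251) had 35 and 55 counts with the AXL shRNA (1.06 and 1.33 CPM), against 8 and 17 counts with the control shRNA (0.246 and 0.509 CPM). Both AXL shRNA libraries were the higher, by 4.29-fold at P15 and 2.62-fold at P3. The log2 change was 1.65 (SE 0.48, adjusted p = 0.0321), and the summed counts of 90 and 25 gave a ratio of 3.19 (exact binomial 95% interval 2.03 to 5.19). The call was lost with 5 of the 8 libraries left out in turn, with adjusted p from 0.0542 (drug control P17) to 0.149 (control shRNA P15), through 0.0549 (drug control P4), 0.0639 (AXL shRNA P15) and 0.121 (AXL shRNA P3). It was also lost when the 4 hairpin libraries were fitted alone (0.0595).

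HES1 (chr3:194136145-194138732), whose promoter holds both RBPJ cores shown above, had 17.7 and 12.5 CPM with the AXL shRNA, against 18.1 and 12.4 CPM with the control shRNA. The libraries of the same P number were within a few percent of each other, with ratios of 0.977 at P15 and 1.00 at P3. The 95% interval of the log2 change was -0.83 to 0.79 (adjusted p = 0.970), and -0.34 to 0.31 with the block (adjusted p = 0.939). HES4 (chr1:998962-1000172) had 7.06 and 5.04 CPM with the AXL shRNA, overlapping the 8.36 and 5.87 CPM of its controls (log2 -0.23, adjusted p = 0.604). HEY1 (chr8:79764010-79767863) had 1.48 and 2.01 CPM with the AXL shRNA and 1.54 and 1.77 CPM with the control shRNA, and its log2 change of 0.08 turned to -0.08 and -0.14 on the log2(TPM + 1) and log2(TPM + 0.1) scales.

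**Figure D3:**
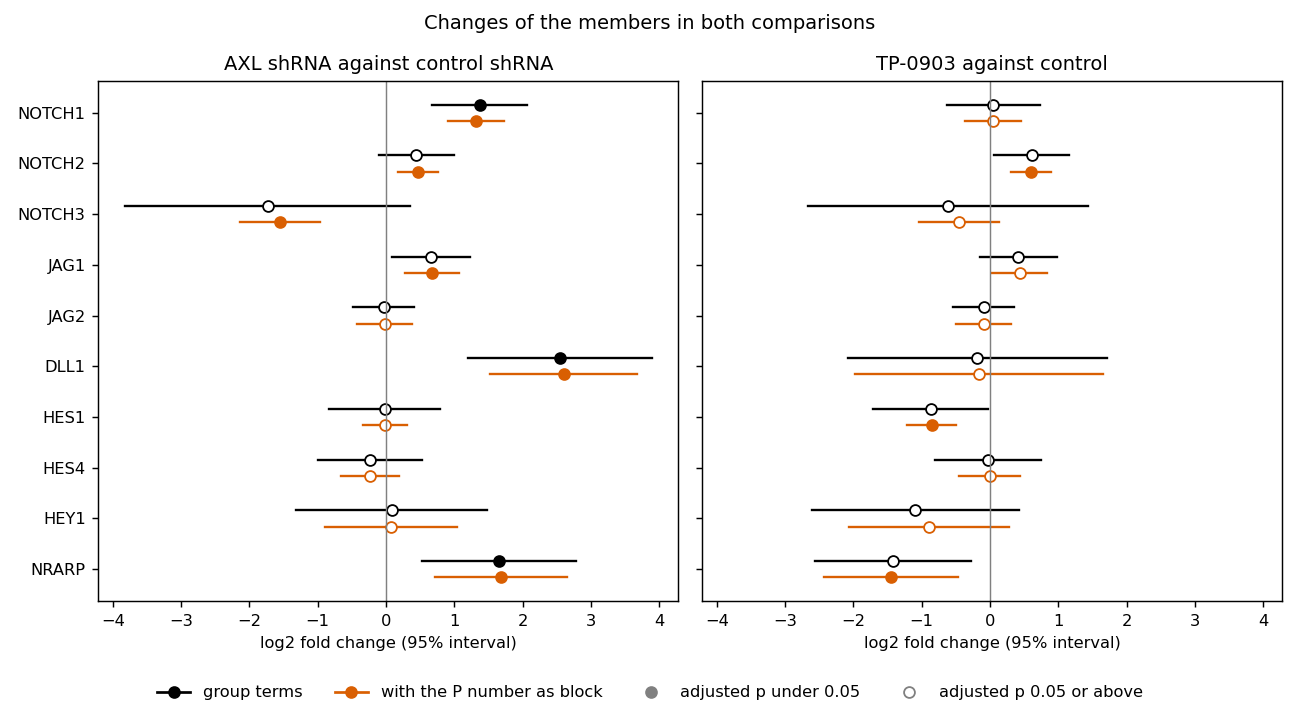
Log2 fold change of each member with its 95% interval, AXL shRNA against control shRNA on the left and TP-0903 against control on the right, from the fit with 1 term per group (black) and with the P number as a block (orange); filled points have an adjusted p under 0.05. Without the block the filled points are NOTCH1, DLL1 and NRARP with the AXL shRNA and none with TP-0903.

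The rest of the pathway was followed in 8 lists of 59 genes, of which 57 were tested. With the AXL shRNA 9 rose and 20 fell, 28 did not pass, and the median log2 change was -0.21, against -0.01 over all genes tested, of which 18.5% rose and 19.0% fell. With the block 12 rose and 21 fell, beside 4523 genes higher and 4615 lower of all 17676 tested. With 1 library left out in turn, 3 to 7 were higher and 11 to 20 lower; the fewest higher were found without AXL shRNA P15 (3) and without either control shRNA library (4 each), and the fewest lower without AXL shRNA P3 (11) and control shRNA P15 (13).

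Of the other receptors and ligands, 1 of 4 tested genes rose and 1 fell, beside 18.5% and 19.0% of all genes. DLL4, the Delta-like ligand of sprouting endothelium, had 3.77 and 3.25 CPM with the AXL shRNA, against 0.246 and 0.449 CPM with the control shRNA. Both AXL shRNA libraries stood far above both controls (log2 3.32, SE 0.40, adjusted p = 0.00122), and DLL4 passed in all 17 alternative fits. The endothelial marker KDR was at 0 in all 8 libraries and PECAM1 at 0.211 CPM or less, while CDH5 had 9.57 and 2.98 CPM with the AXL shRNA against 2.55 and 0.210 CPM with the control shRNA. DLK2, a non-canonical Delta-like protein, fell (log2 -1.24, adjusted p = 0.0257), a call that was lost without any 1 of the 4 hairpin libraries.

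Among the ubiquitin ligases that act on ligands, MIB1 rose (log2 0.39, adjusted p = 0.0451) and 3 of 4 did not pass; 7 of the 8 fits without a library lost this call. Among 5 receptor glycosylation genes 2 fell, beside 19.0% of all genes tested. POFUT1, which adds O-fucose to the receptor, had 55.2 and 53.5 CPM with the AXL shRNA against 123 and 133.5 CPM with the control shRNA (log2 -1.24, SE 0.10, adjusted p = 4.02e-04). The O-glucosyltransferase POGLUT1 fell by 0.54 on the log2 scale (adjusted p = 0.0243).

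Of 9 receptor cleavage genes 5 fell, beside 19.0% of all genes tested. ADAM10, the protease that makes the first ligand-induced cut, had 185 and 181 CPM with the AXL shRNA against 304 and 254 CPM with the control shRNA (log2 -0.61, adjusted p = 0.00736). PSENEN, a subunit of gamma-secretase, had 39.3 and 46.8 CPM with the AXL shRNA against 73.1 and 72.6 CPM with the control shRNA (log2 -0.76, adjusted p = 0.00412).

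In the nuclear activator complex 5 of 8 genes fell, RBPJ among them (log2 -0.42, adjusted p = 0.0368), and 1 rose. Among all genes tested 19.0% fell and 18.5% rose. KAT2B, a histone acetyltransferase, had 2.17 and 3.98 CPM with the AXL shRNA against 21.99 and 24.7 CPM with the control shRNA (log2 -2.91, SE 0.26, adjusted p = 5.51e-04). Of the Mastermind coactivators, MAML1 fell by 0.58 (adjusted p = 0.0146) and MAML2 rose by 0.86 on the log2 scale (adjusted p = 0.0143). Of 11 corepressor genes 3 rose and 4 fell. TLE2, a Groucho-type corepressor that HES proteins recruit, had 1.90 and 1.14 CPM with the AXL shRNA against 10.4 and 7.93 CPM with the control shRNA (log2 -2.60, adjusted p = 0.00111). NCOR1 fell (log2 -0.68, adjusted p = 0.00382), while SPEN, which binds RBPJ, and TLE3 rose by 0.55 and 0.57 on the log2 scale (adjusted p = 0.0124 and 0.0191).

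Of 11 trafficking and turnover genes 2 rose and 2 fell, beside 18.5% and 19.0% of all genes. NUMB, an inhibitor of Notch that acts in endocytosis, fell (log2 -0.68, adjusted p = 0.00458) and its relative NUMBL rose (log2 0.84, adjusted p = 0.0123). DTX3, of the Deltex family of ubiquitin ligases, fell by 0.91 (adjusted p = 0.00386), and CCNC, the cyclin of the kinase CDK8, rose by 0.40 on the log2 scale (adjusted p = 0.0268). Of 5 other HES and HEY genes tested, HEYL fell to 2.42 and 2.26 CPM with the AXL shRNA, against 7.66 and 7.06 CPM with the control shRNA (log2 -1.66, adjusted p = 0.00154), and 4 did not pass. DLL4, POFUT1, PSENEN, ADAM10, KAT2B, TLE2, NCOR1, DTX3, NUMB and HEYL passed in all 17 alternative fits; POGLUT1, MAML1, MAML2, SPEN, TLE3, NUMBL and CCNC each lost the call in 2 or more of the fits without a library.

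**Figure D4:**
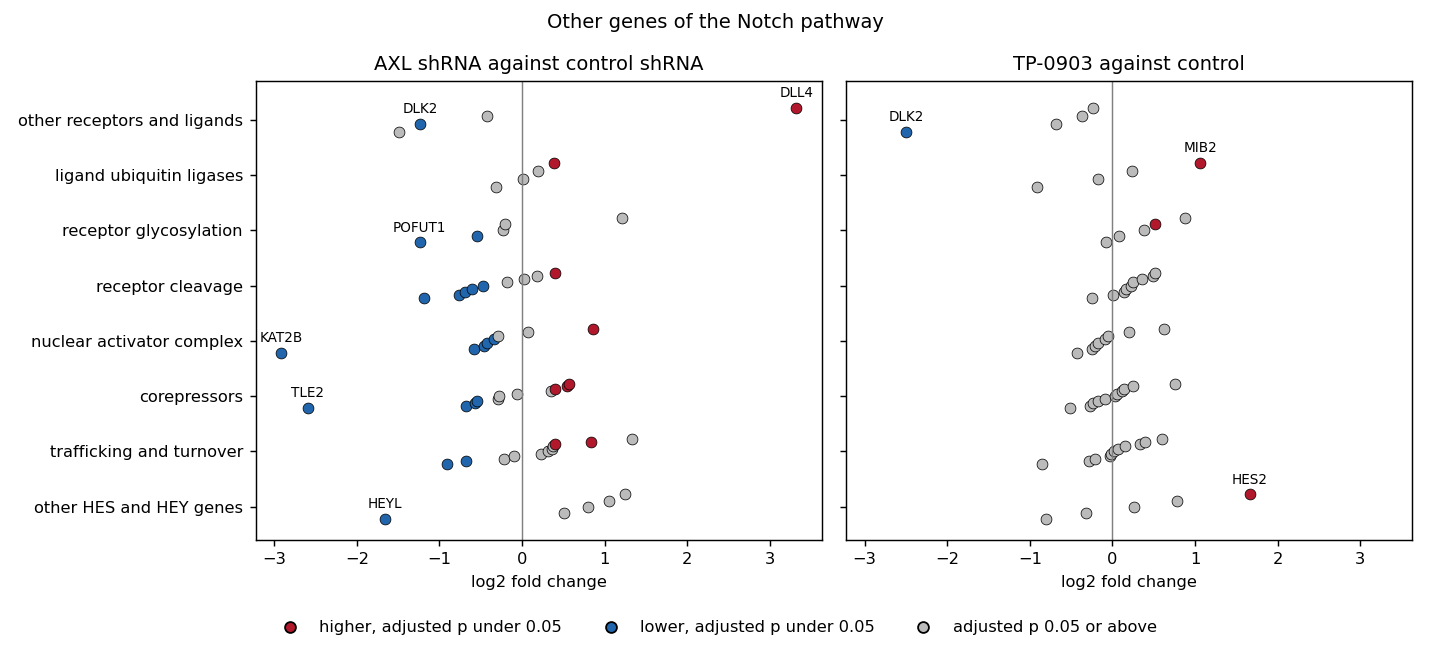
Log2 fold change of the 57 tested genes of the wider pathway by list, AXL shRNA against control shRNA on the left and TP-0903 against control on the right; red points were higher and blue points lower with an adjusted p under 0.05. With the AXL shRNA 9 are red and 20 blue, with TP-0903 3 are red and 1 is blue.

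With TP-0903, HES1, NRARP and JAG2 were lower and NOTCH2 and JAG1 higher in both drug libraries than in both controls, 5 of 10 members without overlap beside 59.8% of all genes tested. None of the 10 members passed in edgeR's quasi-likelihood test, where 11.3% of all genes did. The unadjusted p was under 0.05 for HES1, NRARP and NOTCH2, and neither DESeq2 nor limma-voom called any member. With the P number as a block these 3 passed, 1 higher and 2 lower, beside 26.3% of all genes.

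HES1 had 3.21 and 4.92 CPM with TP-0903 at P17 and P4, against 5.46 and 9.39 CPM in control cells. The drug library was the lower of each P number, with ratios of 0.587 and 0.524. The log2 change of -0.87 (SE 0.36) had an adjusted p of 0.163, and of 0.00517 with the block. HES4, with the GTGGGAA shown above before its RefSeq start, had 3.83 and 4.98 CPM with TP-0903, inside the 3.41 and 5.58 CPM of its controls (log2 -0.03, 95% interval -0.81 to 0.75).

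NRARP had 8 and 16 counts with TP-0903 (0.247 and 0.469 CPM), against 32 and 43 counts in control cells (0.866 and 1.07 CPM). Both drug libraries were below both controls, with ratios of 0.285 at P17 and 0.440 at P4. The log2 change of -1.42 (SE 0.49) had an adjusted p of 0.107, and of 0.0380 with the block. The summed counts of 24 and 75 gave a ratio of 0.372 (exact binomial 95% interval 0.224 to 0.596). HEY1 had 16 and 17 counts with TP-0903 against 14 and 70 counts in control cells, so the groups overlapped and the control libraries differed by 4.58-fold (log2 -1.09, adjusted p = 0.318).

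NOTCH2 had 148 and 100.5 CPM with TP-0903, against 92.7 and 70.3 CPM in control cells. The drug library was the higher of each P number, by 1.601-fold and 1.43-fold. The log2 change of 0.61 (SE 0.23) had an adjusted p of 0.140, and of 0.0105 with the block. NOTCH1, at 33.2 and 23.8 CPM with TP-0903 against 31.6 and 23.5 CPM in control cells, had a log2 change of 0.05 (95% interval -0.63 to 0.73). NOTCH3 had 14.4 and 51.6 CPM with TP-0903 and 16.01 and 84.9 CPM in control cells, where the P4 library was above the P17 library in both groups and the drug and control values overlapped (log2 -0.61, adjusted p = 0.701).

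JAG1 had 261 and 214 CPM with TP-0903, against 145 and 211 CPM in control cells. The drug library was 1.796-fold higher at P17 and 1.01-fold at P4, and the log2 change of 0.41 (SE 0.24) had an adjusted p of 0.310. JAG2 had 29.9 and 31.3 CPM with TP-0903 and 32.7 and 32.5 CPM in control cells (log2 -0.09, 95% interval -0.54 to 0.36). DLL1 was at the limit of detection, with 2 and 4 counts with TP-0903 and 2 and 6 counts in control cells, and the ratio of 0.871 had an exact binomial 95% interval of 0.249 to 2.86.

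Of the 57 other pathway genes tested, 3 rose and 1 fell with TP-0903, 53 did not pass, and the median log2 change was 0.03 against -0.02 over all genes, of which 4.90% rose and 6.35% fell. DLK2 had 0.309 and 0.322 CPM with TP-0903 against 2.08 and 1.51 CPM in control cells (log2 -2.50, SE 0.36, adjusted p = 0.00619). The ligand ubiquitin ligase MIB2 had 40.3 and 37.0 CPM with TP-0903 against 16.04 and 20.9 CPM in control cells (log2 1.06, adjusted p = 0.0148). HES2 had 6.73 and 5.16 CPM with TP-0903 against 1.32 and 2.40 CPM in control cells (log2 1.67, adjusted p = 0.0303). The glycosyltransferase RFNG rose by 0.52 on the log2 scale (adjusted p = 0.0435). Each of these calls was lost without TP-0903 P17 or without control P17. Without TP-0903 P4 those of HES2 and RFNG were lost, while those of DLK2 and MIB2 were kept. RFNG also lost its call without control P4 or without either AXL shRNA library. With the block 8 rose and 2 fell, beside the 26.3% of all genes.

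The difference of effects, TP-0903 minus control less AXL shRNA minus control shRNA, tested whether both perturbations acted alike on a member. NRARP passed (log2 -3.07, SE 0.68, adjusted p = 0.0208), with the AXL shRNA above its control in 2 of 2 libraries and TP-0903 below its control in 2 of 2. It was 1 of 10 members, beside 20.6% of all genes. The call was lost in 5 of the fits without a library: the drug's control libraries P17 (0.0565) and P4 (0.0661), AXL shRNA P3 (0.0589), control shRNA P15 (0.0601) and TP-0903 P17 (0.0724). NOTCH1 had a difference of -1.32 (SE 0.41, adjusted p = 0.0603) and DLL1 of -2.73 (SE 1.00, adjusted p = 0.0955). HES1 had a difference of -0.85 (SE 0.50, adjusted p = 0.266). With the block 5 members passed, beside 36.9% of all genes: NOTCH1 (-1.27, adjusted p = 0.00530), NOTCH3 (1.09, 0.0434), DLL1 (-2.76, 0.0499), HES1 (-0.84, 0.0154) and NRARP (-3.13, 0.00451). Of the wider pathway 15 genes had a positive and 2 a negative difference that passed, against 9.82% and 10.8% of all genes. With the block these were 18 and 8, beside 3282 genes with a positive and 3248 with a negative difference of 17676 tested.

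The controls of the hairpin and of the drug were not at the same level for every member. HES1 had 18.1 and 12.4 CPM with the control shRNA, against 5.46 and 9.39 CPM in the drug's control cells, and all 4 hairpin libraries lay above all 4 libraries of the drug arm. NRARP had 0.246 and 0.509 CPM with the control shRNA against 0.866 and 1.07 CPM in the drug's control cells, so that the higher NRARP levels were those of the AXL shRNA and of the drug's controls. None of the 10 members passed in edgeR's quasi-likelihood test of control shRNA minus control, where 9.15% of all genes did. The log2 changes were 1.04 for HES1 (SE 0.35, adjusted p = 0.111) and -1.35 for NRARP (SE 0.48, adjusted p = 0.126), the 2 members with an unadjusted p under 0.05. DESeq2 called 1 member, beside 1211 genes higher and 1547 lower of 15277 tested, and limma-voom called 0. Of the 57 other pathway genes, TLE3 (log2 0.64, adjusted p = 0.0380) and DTX3 (log2 0.71, adjusted p = 0.0316) were higher with the control shRNA, calls that were lost in 8 and 5 of the 8 fits without a library. Hairpin, culture and P number cannot be told apart in this comparison.

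For each member the 2 genes with the most similar profile were taken by the root mean square difference of log2(CPM + 2), centred on its mean, over the 8 libraries, among 11308 or 11309 genes averaging 5 CPM or more. For NOTCH1 these were PKP3 (0.18 log2 units) and PCLO (0.18), for NOTCH2 USP43 (0.08) and CD47 (0.10), and for NOTCH3 SCARA5 (0.30) and RBFOX3 (0.37). For JAG1 they were PHLDA1 (0.15) and XAGE1B (0.16), for JAG2 TIMM50 (0.09) and DDX39B (0.09), for HES1 TTC39B (0.14) and FLRT3 (0.18), and for HES4 CAST (0.08) and TBC1D9 (0.09). The members' own root mean square deviation was 1.05 for NOTCH3, 0.68 for HES1 and 0.59 for NOTCH1. DLL1, HEY1 and NRARP lie under the pseudocount, which flattens their profiles to deviations of 0.34, 0.29 and 0.20, and their nearest genes were MIER2 and C1orf52, CALCOCO2 and PAM16, and HDAC1 and CHD7.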

How the data were processed

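Total RNA of A549 cells was sequenced from Nextera XT libraries, for which no strand is stated, per the labels' protocols. Alignment with STAR (2.5.3a) to GRCh38 and quantification with RSEM come from the submitters' processing notes; no annotation is named in the sources used here. Per the file headers, the authors deposited expected counts (RSEM's estimated reads per gene, not normalized), TPM (scaled for length and depth within a library), FPKM from the same run, and effective lengths. FPKM was not used. Positions are from GENCODE release 29, which held 58039 of the 58302 gene IDs.

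Expected counts were rounded, filtered with edgeR's filterByExpr by group and scaled by trimmed means of M values (TMM). A quasi-likelihood model with 4 group terms was fitted to all 8 libraries together in edgeR, version 4.0.16 (prior degrees of freedom 3.33, residual 4). Tests were two-sided, with p-values adjusted by the Benjamini-Hochberg method over 17676 genes and a threshold of 0.05. CPM are counts per 1000000 of the TMM-scaled library. The fit was tested on simulated counts without paired libraries, in which only genes with higher counts were changed. That test does not cover DLL1, NRARP and HEY1. Binomial intervals are Clopper-Pearson at the 95% level and cover counting error only.

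Deviations from the group means correlated at 0.559 (hairpin arm) and 0.626 (drug arm) for groups that share P numbers, against 0.177 to 0.380 for groups that do not, so the number was taken to pair libraries. Blocked values are printed where they move a member's change across the threshold, and as counts for the pathway lists. Alternatives used DESeq2 (1.42.0), limma (3.58.1), other scalings, no filter, the block, 4 libraries alone and each library left out.

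The members, the pathway lists and the markers were chosen with earlier results of these data known. Named genes were the members, AXL, and in each pathway list the called genes with the smallest p, up to 2 in each direction. NOTCH2NL, CDH5, KDR, PECAM1, PDGFRB, COL1A1, COL1A2, DCN, LUM, RGS5, HBA1 and RBPJ were named after their values were seen. A gene that the rule names and 1 marker list are not reported here. Sequences are RefSeq's.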

Additional observations from a re-analysis of the deposited data

Results flagged for a closer look

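For 13 of the named genes the effect of TP-0903 differed from that of the AXL shRNA by the interaction test in edgeR. Differences are in log2 units of TP-0903 minus control less AXL shRNA minus control shRNA. Pathway genes were named partly for passing this same test, so their number follows from that choice. Among all genes tested 20.6% passed it. NRARP had a difference of -3.07 (adjusted p = 0.0208), with opposite directions in both arms, and the ligand DLL4 of -3.69 (adjusted p = 0.00611). HDAC1, a histone deacetylase, had -0.628 (adjusted p = 0.0338). Positive differences were found for KAT2B (3.11, adjusted p = 0.00211), TLE2 (2.08, 0.0130), APH1B of gamma-secretase (1.55, 0.0213), HEYL (1.34, 0.0201), POFUT1 (1.32, 0.00170), MIB2 (1.06, 0.0328), POGLUT1 (0.919, 0.0214), ADAM10 (0.830, 0.0149), NUMB (0.830, 0.0142) and CTBP1 (0.621, 0.0210). Of these, DLL4, POFUT1 and KAT2B passed in all 16 alternative fits, and TLE2 was lost only without the drug's control library of P17 (adjusted p = 0.0503). The others, NRARP included, were lost in 2 or more of the fits without a library.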

How the results depend on the processing

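Depth limits DLL1, NRARP and HEY1, with under 100 counts in every library. With the P number as replicate block, 6 members were called with the AXL shRNA, beside 51.7% of all genes. With TP-0903 3 members were called (of 4647 genes, 26.3% of all), and 5 in the difference of effects (of 6530 genes, 36.9%). Without a count filter 31048 genes were tested. With the AXL shRNA 6 members were called there, beside 3815 genes higher and 3962 lower. With TP-0903 3 members were among 3515 genes called, and in the difference 4 were called, beside 2509 genes higher and 2517 lower. For control shRNA minus control 2 members were among 3352 genes called. DESeq2 called 3002 genes with TP-0903. In the difference it called 2 members, beside 2116 genes higher and 2323 lower of 16305 tested. For control shRNA minus control 1 member was among the 2758 genes it called of 15277 tested. Limma on log2(TPM + 1) called 2 members in the difference, beside 2207 genes higher and 1266 lower of 17676 tested. The 4 libraries alone gave 743 genes for control shRNA minus control; this fit was not run for the difference, and the block gives no value for control shRNA minus control. The cause was not tested.

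With 1 library left out, genes called ranged from 4408 to 6105 (AXL shRNA), 489 to 1727 (TP-0903), 1855 to 2670 (difference) and 343 to 1277 (control shRNA minus control), and members called from 0 to 3 with the AXL shRNA, where 0 was found without control shRNA P15 and 1 without AXL shRNA P3, and from 0 to 1 in the difference.

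On log2(TPM + 1) and log2(TPM + 0.1) the median of all genes moved to -0.15 and -0.21 with the AXL shRNA and to 0.14 and 0.20 in the difference. There 31.3% and 31.1% of called genes were higher with the AXL shRNA, against 49.4% in the count fit, and 63.5% and 64.2% in the difference, against 47.6%.

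The signs that turned belonged to values that did not pass. For AXL shRNA minus control shRNA, HES1 was 0.0107 with relative log expression factors and 0.0109 with DESeq2, HEY1 was -0.0778 and -0.139 in the TPM fits, and JAG2 was 0.0829 with effective lengths. JAG2 was 2.99e-04 with effective lengths for TP-0903, and 0.0532 and 0.0561 in the TPM fits for the difference. NOTCH1 in control shRNA minus control was 0.0108 with limma-voom, 0.0271 and 0.0354 in the TPM fits and 0.0148 with effective lengths.

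With 1 library left out the signs also turned for JAG2 (-0.30 to 0.27), HES1 (-0.29 to 0.27), HES4 (-0.50 to 0.0330) and HEY1 (-0.16 to 0.28) with the AXL shRNA. For TP-0903 they turned for NOTCH1 (-0.21 to 0.29), NOTCH3 (-1.80 to 1.06), DLL1 (-0.69 to 0.72), HES4 (-0.33 to 0.39) and HEY1 (-1.79 to 0.41). In the difference they turned for NOTCH2 (-0.14 to 0.44), NOTCH3 (-0.0560 to 2.81), JAG1 (-0.50 to 0.0716), JAG2 (-0.36 to 0.23), HES4 (-0.10 to 0.62) and HEY1 (-1.87 to 0.33). For control shRNA minus control they turned for NOTCH1 (-0.20 to 0.22), NOTCH2 (-0.17 to 0.27), JAG2 (-0.52 to 0.0597) and HEY1 (-0.0733 to 2.12).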

Other observations

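Several Notch genes differed between the P numbers in the same direction in all 4 groups, a pattern picked out after the values were seen and not tested. The share of all genes with such a shared direction was not counted. Over all genes tested, the deviations of the libraries with the higher P number correlated positively between every pair of groups (0.177 to 0.626). NOTCH3 was higher at P3 or P4 than at P15 or P17 by 1.32-fold with the AXL shRNA, 3.08-fold with the control shRNA, 3.59-fold with TP-0903 and 5.30-fold in the drug's control cells. DLL1 was higher at the lower number by 1.20-fold, 2.72-fold, 1.90-fold and 2.75-fold in the same order of groups, where the drug arm rests on 4 against 2 and 6 against 2 counts. NRARP was higher at the lower number by 1.26-fold, 2.07-fold, 1.90-fold and 1.23-fold, on 8 to 55 counts per library. HEY1 was higher by 1.36-fold, 1.15-fold, 1.01-fold and 4.58-fold, where the value with TP-0903 is 17 against 16 counts and so nearly level. DLL3, a divergent ligand that acts within the cell, was at 3.41 and 6.16 CPM at P15 and P3 with the AXL shRNA, 4.92 and 7.99 with the control shRNA, 5.09 and 7.41 at P17 and P4 with TP-0903, and 7.20 and 7.51 in the drug's control cells. LFNG, a glycosyltransferase that shifts receptors between ligands, went the other way, with 26.8 and 9.48 CPM at P15 and P3 with the AXL shRNA, 9.502 and 6.17 with the control shRNA, 12.01 and 6.56 at P17 and P4 with TP-0903, and 12.01 and 7.53 in the drug's control cells. HES1 and HES4 had no such shared direction: P15 was above P3 in both hairpin groups, and P17 was below P4 in both drug groups.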
